A study of Mus musculus with 18 samples.

Results

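The genes described here are 38 liver genes, chosen by symbol from 32015 in the tables for what they are known to do in hepatocytes: 9 transcription factors of hepatocyte identity, 6 transport and carrier proteins, 5 apolipoproteins, 8 genes of blood coagulation and its inhibitors, 3 inter-alpha-trypsin inhibitor heavy chains, 3 metabolic enzymes and 4 oncofetal genes. They were followed in RNA-seq of polyadenylated RNA in 18 libraries, 9 from Hepa1-6, a mouse liver cancer line, and 9 from B16, which is a mouse melanoma line. In each 6 libraries carried the genotype label Ncor1 knockout, 3 with the guide RNA sgNcor1-1 and 3 with sgNcor1-2, and 3 carried the control guide sgCtrl and the genotype label WT. All libraries came from cells that had received a guide, and the labels name no treatment and no time. The sources used here do not say whether the cells of a guide were a pool or a clone, nor where in Ncor1 the guides cut.

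Hepatocytes make most of the proteins of blood plasma, and they keep doing so because a small set of transcription factors, among them HNF4A, the FOXA proteins and C/EBP alpha, bind the promoters and enhancers of those genes and of each other. Fetal hepatocytes add proteins that the adult liver shuts off, such as alpha-fetoprotein, and liver tumours often switch these on again while they lose adult functions. NCOR1 is a corepressor that nuclear receptors recruit to bring histone deacetylase to the genes they bind, and the receptors encoded by Hnf4a, Nr1h4 and Nr5a2 belong to that family.

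Ncor1 itself stood at 133 to 199 CPM (counts scaled to library size) in the 6 Hepa1-6 libraries with an Ncor1 guide, against 223 to 269 CPM in the 3 with sgCtrl. The groups did not overlap, yet the log2 fold change of -0.62 (SE 0.17) did not pass the test across all genes (edgeR, adjusted p = 0.223). In B16 the Ncor1-targeted libraries had 232 to 352 CPM and the sgCtrl libraries 271 to 326 CPM (log2 fold change -0.06, SE 0.19), so the RNA level does not check the knockout label there, and protein was not measured. Depth ranged over 17689335 to 30819689 total counts for Hepa1-6 libraries and 15663983 to 25263749 for B16 libraries. On the leading principal component the libraries numbered 1 stood apart in all 3 Hepa1-6 groups. In B16 those numbered 1 lay at -98.5 (sgNcor1-1), -23.2 (sgNcor1-2) and -29.1 (sgCtrl), against 2.73 to 51.4 for the other B16 libraries. Of 10 hepatocyte markers 5 reached 1 CPM in Hepa1-6 sgCtrl (Alb, Afp, Apob, Trf and Hnf4a) while Fabp1 was at 0, against 1 of 10 in B16 (Trf). Of 12 melanocyte markers 3 reached it in Hepa1-6 (Mitf, Trpm1 and Gpnmb), with Tyrp1 and Dct at 0, against 12 of 12 in B16. The list summed to 343 to 580 CPM in Ncor1-targeted and 513 to 695 CPM in sgCtrl libraries of Hepa1-6. In the same groups of B16 it summed to 7172 to 23827 CPM and 7767 to 18445 CPM. In Hepa1-6 sgCtrl the hepatocyte markers summed to 1004 to 1130 CPM and 8 cholangiocyte markers to 1165 to 1585 CPM. Of the 8 cholangiocyte markers 5 reached 1 CPM in Hepa1-6, among them Krt19 and Sox9. Of 9 stellate cell and fibroblast markers Des and Dcn reached it, with Lrat, Acta2 and Lum at 0, and the list summed to 716 to 1612 CPM in Ncor1-targeted and 1168 to 1409 CPM in sgCtrl libraries of Hepa1-6. Of 6 macrophage markers Cd68 and Csf1r reached it, and of 5 endothelial markers 0. The part of these genes in the results was not tested.

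Several of the liver genes are neighbours in the genome, and their promoters are shown because neighbours of a family differed either in level or in how their knockout and control libraries lay. Alb and Afp lie in the same orientation on chromosome 5, 14.1 kb apart with no coding gene between them, and the 3 fibrinogen genes lie together on chromosome 3, where Fga is 6.5 kb from Fgb and 11.0 kb from Fgg. The promoters are the 250 bases before the gene start in RefSeq (build GRCm38.p6), at chr5:90490464-90490713 (+) for Afp, chr5:90460620-90460869 (+) for Alb, chr3:83049864-83050113 (-) for Fgb, chr3:83025903-83026152 (+) for Fga and chr3:83007474-83007723 (+) for Fgg. Capitals mark TATAAA on either strand, the letters of the TATA box.
Afp promoter: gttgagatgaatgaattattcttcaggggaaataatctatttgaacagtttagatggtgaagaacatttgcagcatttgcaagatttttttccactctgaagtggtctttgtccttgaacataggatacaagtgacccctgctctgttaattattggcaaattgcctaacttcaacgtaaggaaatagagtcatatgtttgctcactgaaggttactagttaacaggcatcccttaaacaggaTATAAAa
Alb promoter: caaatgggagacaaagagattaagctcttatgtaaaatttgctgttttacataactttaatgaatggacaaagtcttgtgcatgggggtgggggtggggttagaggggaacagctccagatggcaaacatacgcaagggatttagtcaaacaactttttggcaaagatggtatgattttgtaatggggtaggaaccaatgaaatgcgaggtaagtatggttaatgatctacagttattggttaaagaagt
Fgb promoter: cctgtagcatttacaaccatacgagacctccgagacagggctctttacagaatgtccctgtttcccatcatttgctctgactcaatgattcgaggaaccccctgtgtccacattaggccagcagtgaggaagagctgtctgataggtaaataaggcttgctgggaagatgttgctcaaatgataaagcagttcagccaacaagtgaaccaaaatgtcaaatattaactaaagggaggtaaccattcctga
Fga promoter: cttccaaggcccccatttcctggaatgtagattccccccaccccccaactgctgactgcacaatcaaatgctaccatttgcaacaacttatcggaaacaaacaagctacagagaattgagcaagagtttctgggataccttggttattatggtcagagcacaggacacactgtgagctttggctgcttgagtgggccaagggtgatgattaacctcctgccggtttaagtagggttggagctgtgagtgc
Fgg promoter: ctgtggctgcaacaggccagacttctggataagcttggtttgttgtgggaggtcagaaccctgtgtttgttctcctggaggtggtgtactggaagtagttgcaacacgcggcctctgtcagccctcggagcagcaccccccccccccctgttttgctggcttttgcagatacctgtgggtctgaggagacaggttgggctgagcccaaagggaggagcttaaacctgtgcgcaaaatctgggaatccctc
The Afp window held TATAAA, beginning 7 bases before the gene start, and those of Alb, Fgb, Fga and Fgg did not hold these letters. Of all 32851 promoters that RefSeq lists here, 12.4% held TATAAA, and so did those of 11 of the 33 liver genes with an entry (Afp, Rbp4, Apoa2, Apob, Foxa2, Foxa3, Cebpa, Nr5a2, Prox1, Vtn and G6pc). The share of all is per promoter, while a liver gene was counted if any of its promoters held the letters. The share and the count are therefore not on the same measure. The letters were present in 7 of 18 genes with an entry that Hepa1-6 expressed and in 4 of 15 that it did not. The HNF4 sequence CAAAGTCCA and the C/EBP sequence TTGCGCAA, also read on both strands, were in none of the 33 and in 0.384% and 0.164% of all promoters. GENCODE M21 places the starts of Afp and Alb 23 and 27 bases downstream of those in RefSeq, so these windows leave out the bases nearest to the GENCODE starts. It places the start of Fga at -77 bases from that in RefSeq, which is upstream, so the end of the Fga window lies after the GENCODE start. A match of letters is a description of the window and not a bound site.

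Alb and Afp were both expressed in Hepa1-6, while of the 3 fibrinogen genes Fgb alone reached 1 CPM. Fgb, the beta chain, had 23.2, 26.5 and 59.5 CPM with sgNcor1-1, 20.9, 33.0 and 44.2 CPM with sgNcor1-2 and 10.1, 52.9 and 34.1 CPM with sgCtrl. The groups overlapped throughout. Fga, the alpha chain, had 2 counts in all 9 Hepa1-6 libraries together, and Fgg, the gamma chain, had 12, of which 1 was in the 6 Ncor1-targeted libraries and 11 in the 3 sgCtrl libraries. Fibrinogen is built from all 3 chains.

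**Figure D1:**
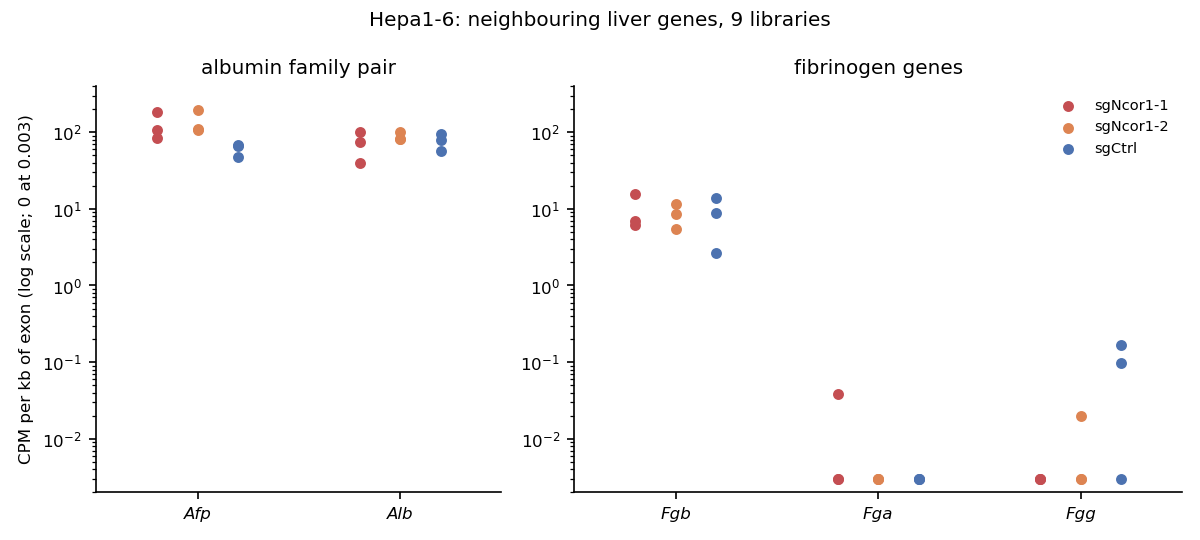
CPM per kb of exon (log scale, 0 drawn at 0.003) of the albumin family pair and the 3 fibrinogen genes in the 9 Hepa1-6 libraries, a point per library, with sgNcor1-1 left, sgNcor1-2 next and sgCtrl right. Afp lies higher in all 6 Ncor1-targeted libraries than in the sgCtrl libraries, Alb overlaps between groups, and Fga and Fgg lie at or near 0 beside Fgb.

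Which of the liver genes does the liver cancer line express, with melanoma cells as the negative reference? A gene was counted as expressed at a mean of at least 1 CPM over the 3 sgCtrl libraries. In Hepa1-6 19 of the 38 were expressed, against 35.8% of all gene symbols, and in B16 4 of 38 (Trf, Prox1, Nr1h4 and Foxa1), against 36.3% of all. All 4 were also expressed in Hepa1-6, so that 15 were above the threshold in Hepa1-6 alone, a class that held 3.94% of all symbols, 0 in B16 alone and 19 in neither line. Nr5a2 (0.985 ± 0.255 CPM) lay just under the threshold and Gpc3 (1.06 ± 0.293 CPM, SD, n = 3) just over it. Of the transcription factors 8 of 9 were expressed in Hepa1-6, all but Nr5a2, of the oncofetal genes 3 of 4, of the carriers 3 of 6 and of the coagulation genes 3 of 8. The apolipoproteins and the inter-alpha-trypsin inhibitor heavy chains had 1 expressed member each (Apob and Itih2) and the metabolic enzymes 0 of 3. Summed over all 38 genes the Hepa1-6 libraries held 1716 to 2239 CPM with an Ncor1 guide and 1899 to 1947 CPM with sgCtrl, against 117 to 175 CPM and 121 to 136 CPM in the same groups of B16. In bulk RNA fewer cells with a transcript and less transcript per cell cannot be told apart. Cell line and deposited table are also the same split, so a difference between the lines cannot be told apart from a difference between the tables.

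**Figure D2:**
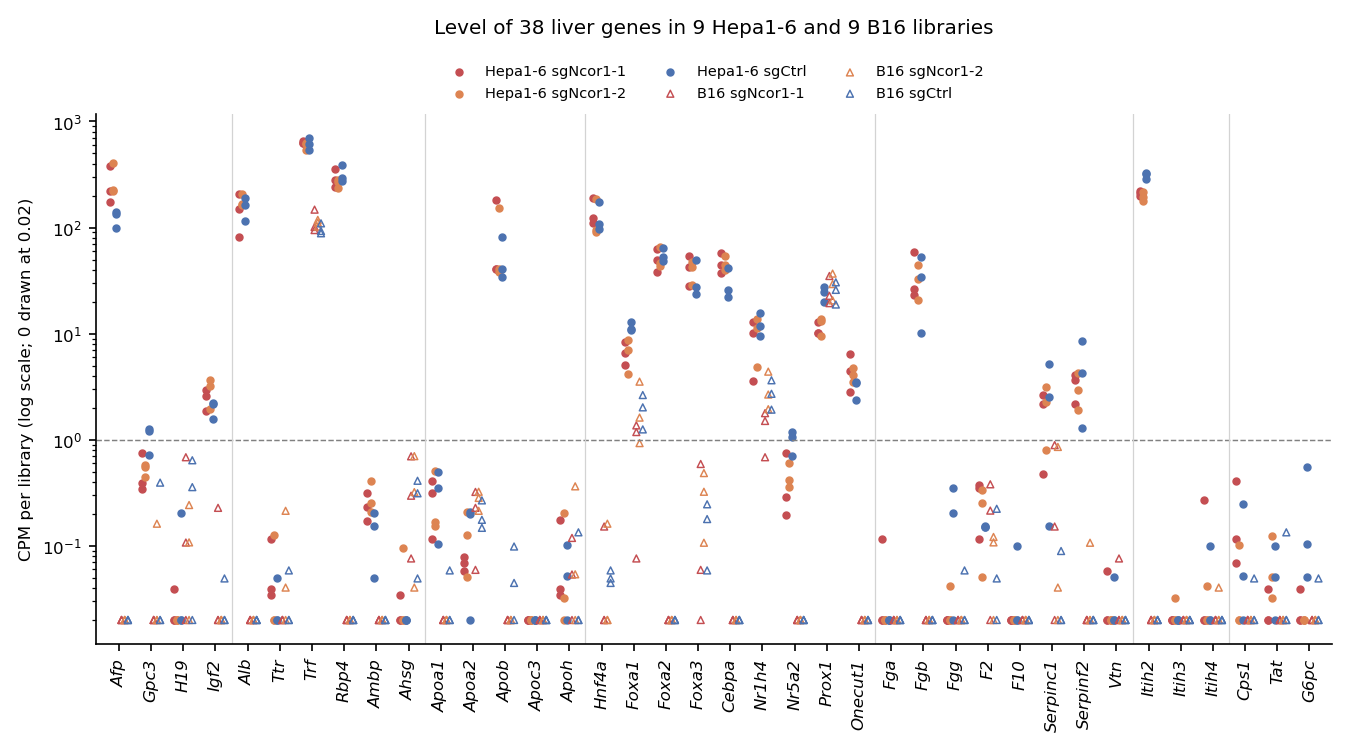
CPM (log scale, 0 drawn at 0.02) of the 38 genes in each of the 18 libraries, ordered by role, with Hepa1-6 as filled circles left of B16 as open triangles and colours for the guides. Above the dashed line at 1 CPM every library of both lines holds Trf and Prox1, while most other genes that Hepa1-6 expresses are at or near 0 in B16.

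Per length of exon the most abundant liver mRNAs of Hepa1-6 sgCtrl were those of 2 carriers. Rbp4, the plasma carrier of retinol, stood at 257 ± 49.1 CPM per kb and Trf, the iron carrier transferrin, at 224 ± 30.6 CPM per kb (SD, n = 3), and their libraries overlapped. Itih2, a heavy chain that is linked to hyaluronan in the matrix, followed at 100.5 ± 6.57 CPM per kb, below every Trf library. Alb, the main plasma protein, stood at 76.7 ± 18.6 and Afp, its fetal relative, at 60.4 ± 10.8 CPM per kb, each overlapping its neighbour in the order. The transcription factors came next and began below Afp without overlap, with Hnf4a at 28.9 ± 9.68, Foxa2 at 25.3 ± 3.49, Foxa3 at 16.5 ± 6.95 and Cebpa at 11.3 ± 3.85 CPM per kb. Foxa1 (3.64 ± 0.363 CPM per kb) and Prox1 (2.86 ± 0.471 CPM per kb) did not overlap, but from Hnf4a down to Foxa1 and again from Prox1 down each gene overlapped the next.

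Among the secreted proteins the gap between the lines was as wide as the counts could show for several and moderate for transferrin. Rbp4, Itih2, Alb and Afp had 18682, 18381, 9235 and 7374 counts over the 3 Hepa1-6 sgCtrl libraries and 0 in all 9 B16 libraries. Set against a floor of 3 counts per library, Rbp4 was at least 2077-fold, Itih2 at least 2041-fold, Alb at least 1022-fold and Afp at least 817-fold higher in Hepa1-6 sgCtrl. Fgb was at least 212-fold and Serpinf2, the plasmin inhibitor alpha-2-antiplasmin, at least 31.0-fold higher. Apob, the protein scaffold of very low density lipoprotein, had 3 counts in B16 sgCtrl and a ratio of 1089 (95% counting interval 352 to 4995). Serpinc1, antithrombin, had 2 counts there and a ratio of 87.7 (21.5 to 657), and Igf2, a fetal growth factor, had 1 count and a ratio of 120.4 (20.8 to 4713). These floors and intervals cover counting error only.

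Trf was the secreted member that melanoma cells shared. It had 534, 611 and 702 CPM in Hepa1-6 sgCtrl and 88.3, 109.6 and 92.8 CPM in B16 sgCtrl. All 3 Hepa1-6 libraries lay far above the B16 libraries, with a log2 fold change of 2.67 (SE 0.20, joint edgeR fit, adjusted p = 8.82e-09). Gpc3, a heparan sulfate proteoglycan of the cell surface that fetal liver and liver tumours make, was low in both lines, at 1.06 ± 0.293 CPM in Hepa1-6 and 0.131 ± 0.228 CPM in B16 sgCtrl. Its log2 fold change of 2.94 (SE 1.08, edgeR, adjusted p = 0.0285) was no longer called without the sgCtrl library numbered 2 or 3 of either line (adjusted p 0.0607 to 0.0872). The 8 counts of Gpc3 in B16 sgCtrl all lay in the library numbered 1. Over fits that left out libraries the log2 fold change ran from 2.32 to 7.62.

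Of the transcription factors 5 reached 1 CPM in Hepa1-6 alone and 3 in both lines. Foxa2, a pioneer factor that opens liver chromatin, was at least 361-fold, Cebpa, which encodes C/EBP alpha, at least 195-fold and Onecut1, which encodes hepatocyte nuclear factor 6, at least 20.2-fold higher in Hepa1-6 sgCtrl than in B16 sgCtrl. Hnf4a had 7414 counts in Hepa1-6 sgCtrl and 3 in B16 sgCtrl, a ratio of 2478 (95% counting interval 855 to 12122), and Foxa3 1979 and 10 counts, a ratio of 209. Nr5a2, a nuclear receptor of bile acid synthesis, had 58 counts in Hepa1-6 sgCtrl and 0 in B16, so that it was at least 6.45-fold higher although it missed the expression threshold.

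The 3 factors shared by both lines differed in their balance. Foxa1, the second FOXA pioneer factor of liver, had 13.0, 11.1 and 10.8 CPM in Hepa1-6 sgCtrl and 2.02, 2.64 and 1.25 CPM in B16 sgCtrl (log2 fold change 2.56, SE 0.62, edgeR, adjusted p = 0.00195). Nr1h4, the bile acid receptor FXR, had 15.5, 9.51 and 11.8 CPM in Hepa1-6 sgCtrl and 2.71, 3.64 and 1.92 CPM in B16 sgCtrl (2.16, SE 0.52, adjusted p = 0.00211). Neither overlapped between the lines. Prox1, a homeodomain factor of liver and lymphatic development, had 27.7, 24.5 and 19.8 CPM in Hepa1-6 sgCtrl and 25.9, 18.8 and 30.5 CPM in B16 sgCtrl. Its libraries overlapped between the lines (log2 fold change -0.06, SE 0.29, adjusted p = 0.862). Of the 20 members that passed the low-count filter of the joint fit edgeR called 19 higher in Hepa1-6, where 29.6% of all 14044 genes tested were called higher. Most of these passed the filter through Hepa1-6 alone, which fixes their direction, and nothing is read from the count.

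Many adult plasma proteins had few or no counts in Hepa1-6. Apoc3, an inhibitor of lipoprotein lipase, had 0 counts in all 18 libraries. Apoa1, the main protein of high density lipoprotein, reached at most 16 counts in a Hepa1-6 library, Apoa2, its partner, at most 5, and Apoh, which binds phospholipids, at most 4. The carriers Ttr, which carries thyroid hormone, Ambp, the precursor of alpha-1-microglobulin and bikunin, and Ahsg, fetuin-A, reached at most 4, 8 and 3 counts. F2, prothrombin, reached 11 counts, F10, coagulation factor X, 2, and Vtn, the adhesion protein vitronectin, 1. Itih3 and Itih4, neighbours on chromosome 14 and relatives of Itih2, reached 1 and 7 counts. The enzymes Cps1 of the urea cycle, Tat of tyrosine breakdown and G6pc of glucose release reached 7, 3 and 11 counts. H19, the noncoding RNA next to Igf2 on chromosome 7, had 5 counts in all Hepa1-6 libraries and 40 in all B16 libraries. Ahsg was likewise low in both lines, with 4 counts in Hepa1-6 and 54 in B16. In all, 14 of the 38 genes had 0 counts in every B16 library.

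In Hepa1-6 none of the 20 liver genes tested passed edgeR's test, fitted without a replicate block, between Ncor1-targeted and sgCtrl libraries. Of the 7 with an unadjusted p under 0.05, Afp and Cebpa lay higher and Prox1, Itih2, Foxa1, Gpc3 and Nr5a2 lower. edgeR called 0 of the 20 members tested, against 0.201% of 12458 genes, and at an unadjusted p under 0.05 there were 7 of 20, against 11.1% of genes. The members were chosen with earlier results of these data known, so no conclusion is drawn from such shares. DESeq2 called 3 members (Afp higher, Itih2 and Prox1 lower), against 2% of the genes it tested, and limma-voom 0. Fitted with a replicate block, edgeR called 4 members, Cebpa higher and Foxa1, Itih2 and Prox1 lower (adjusted p 0.0184 to 0.0400). That fit called 525 of 12458 genes. The block treats same-numbered libraries as matched, yet only 3 of 9 Hepa1-6 libraries correlated best with their own number in both other groups. The knockout and sgCtrl libraries did not overlap for 4 of the 20 members, against 9.13% of genes, 1 higher (Afp, against 4.11% of genes) and 3 lower (Prox1, Itih2 and Foxa1, against 5.02%). The median log2 fold change was -0.07 over the 20 members and 0.02 over all genes tested, with 9 members above 0 and 11 below. Of the 38 genes 18 did not pass the filter, with no more than 16 counts in any library. The labels do not say that the libraries within a group are separate cultures, so a p measures only how far these libraries scatter, and that scatter may be technical.

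Afp was the oncofetal gene with the clearest difference. It had 379.9, 176 and 219.5 CPM with sgNcor1-1 and 407, 219 and 227 CPM with sgNcor1-2, against 99.1, 140.1 and 135 CPM with sgCtrl. All 6 Ncor1-targeted libraries lay above all 3 sgCtrl libraries, and the libraries numbered 1 held both the highest knockout values and the lowest sgCtrl value. The log2 fold change was 1.11 (SE 0.30, edgeR, adjusted p = 0.226), and without the libraries numbered 1 it was 0.61. Igf2 stood at 2.47 ± 0.562 CPM with sgNcor1-1, 2.94 ± 0.887 CPM with sgNcor1-2 and 1.98 ± 0.368 CPM with sgCtrl (SD, n = 3 each), with a difference of 0.44 on the log2 scale (SE 0.33, adjusted p = 0.661). Gpc3 stood at 0.496 ± 0.227, 0.530 ± 0.0722 and 1.06 ± 0.293 CPM in the same groups, at a level near 1 CPM (log2 fold change -1.07, SE 0.41, adjusted p = 0.382). Of the 3 oncofetal genes tested 2 lay above 0 and 1 below.

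Alb, the neighbour of Afp, overlapped between groups. It had 206, 81.7 and 151 CPM with sgNcor1-1 and 207, 164 and 166 CPM with sgNcor1-2, against 115, 190.1 and 163 CPM with sgCtrl. The knockout libraries lay on both sides of the sgCtrl range (log2 fold change 0.05, SE 0.28, edgeR, adjusted p = 0.973). The ratio of Afp to Alb counts, a quantity chosen after the values were seen, came to 1.85, 2.15 and 1.45 in the sgNcor1-1 libraries and 1.97, 1.34 and 1.37 in the sgNcor1-2 libraries, against 0.859, 0.737 and 0.828 with sgCtrl. It was above 1 in every Ncor1-targeted library and below 1 in every sgCtrl library, and it is given as a description with no test.

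The other 2 carriers tested also overlapped between groups. Trf had 623, 652 and 632 CPM with sgNcor1-1 and 633, 616 and 533 CPM with sgNcor1-2, against 534, 611 and 702 CPM with sgCtrl. Every knockout library lay within or beside the sgCtrl range, with a log2 fold change of -0.01 (SE 0.14, edgeR, adjusted p = 0.990). Rbp4 stood at 293 ± 57.7, 263 ± 22.9 and 317 ± 60.5 CPM in the same order of groups (-0.20, SE 0.17, adjusted p = 0.710).

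Apob was the apolipoprotein that could be tested, and its libraries split by number more than by guide. It had 182, 40.9 and 41.1 CPM with sgNcor1-1 and 154, 38.3 and 40.8 CPM with sgNcor1-2, against 80.8, 41.1 and 34.1 CPM with sgCtrl. The library numbered 1 was highest in each group, and the other 6 libraries lay between 34.1 and 41.1 CPM. The log2 fold change was 0.66 (SE 0.63, edgeR, adjusted p = 0.740) and 0.09 without the libraries numbered 1. It was 0.11 without the sgNcor1-1 library numbered 1, 0.17 without that of sgNcor1-2 and 1.13 without that of sgCtrl.

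Of the transcription factors all 9 were tested, 4 above 0 and 5 below, with a median log2 fold change of -0.12. Prox1 had the smallest p of all members. It had 10.2, 12.9 and 10.1 CPM with sgNcor1-1 and 9.50, 13.8 and 13.2 CPM with sgNcor1-2, against 27.7, 24.5 and 19.8 CPM with sgCtrl. All 6 Ncor1-targeted libraries lay below all sgCtrl libraries, with the highest knockout library at 13.8 CPM and the lowest sgCtrl library at 19.8 CPM. The log2 fold change was -1.06 (SE 0.20, edgeR, adjusted p = 0.115), and DESeq2 gave an adjusted p of 0.000572, in a range of 0.000572 to 0.998 over 17 settings.

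Foxa1 lay lower and Cebpa higher. Foxa1 had 8.34, 5.12 and 6.55 CPM with sgNcor1-1 and 8.76, 4.16 and 7.01 CPM with sgNcor1-2, against 13.0, 11.1 and 10.8 CPM with sgCtrl. Its groups did not overlap, with a log2 fold change of -0.81 (SE 0.27, edgeR, adjusted p = 0.321). Cebpa had 57.4, 44.0 and 37.4 CPM with sgNcor1-1 and 53.9, 44.0 and 39.5 CPM with sgNcor1-2, against 41.3, 22.3 and 25.7 CPM with sgCtrl. The sgCtrl library numbered 1 reached into the range of the knockout libraries, and within each number the knockout libraries were above the sgCtrl library (log2 fold change 0.62, SE 0.24, adjusted p = 0.390). Onecut1 had 6.42, 4.42 and 2.81 CPM with sgNcor1-1 and 4.80, 3.54 and 4.06 CPM with sgNcor1-2, against 3.42, 3.49 and 2.35 CPM with sgCtrl. These groups overlapped (0.48, SE 0.32, adjusted p = 0.609).

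For Hnf4a, Foxa2 and Foxa3, factors at the centre of the hepatocyte network, the groups overlapped. Hnf4a had 191, 109 and 124 CPM with sgNcor1-1 and 185, 90.2 and 94.1 CPM with sgNcor1-2, against 174, 108 and 95.9 CPM with sgCtrl. The library numbered 1 was highest in each group, in knockout and control alike (log2 fold change 0.06, SE 0.30, edgeR, adjusted p = 0.968). Foxa2 (-0.12, SE 0.21, adjusted p = 0.866) and Foxa3 (0.27, SE 0.30, adjusted p = 0.782) also overlapped between groups. The bile acid receptor gene Nr1h4 had its lowest values in the knockout libraries numbered 1, at 3.59 CPM with sgNcor1-1 and 4.83 CPM with sgNcor1-2, while the other 4 knockout libraries had 10.2 to 13.8 CPM and the sgCtrl libraries 9.51 to 15.5 CPM (-0.40, SE 0.43, adjusted p = 0.773). Nr5a2 stood at 0.412 ± 0.298, 0.460 ± 0.131 and 0.985 ± 0.255 CPM in sgNcor1-1, sgNcor1-2 and sgCtrl (-1.15, SE 0.49, adjusted p = 0.427). Beside these factors the 8 cholangiocyte markers summed to 970 to 1351 CPM in the Ncor1-targeted libraries and 1165 to 1585 CPM in the sgCtrl libraries, and of 6 tested 2 lay above 0 and 4 below with a median log2 fold change of -0.54. Their part in the values above was not tested.

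**Figure D3:**
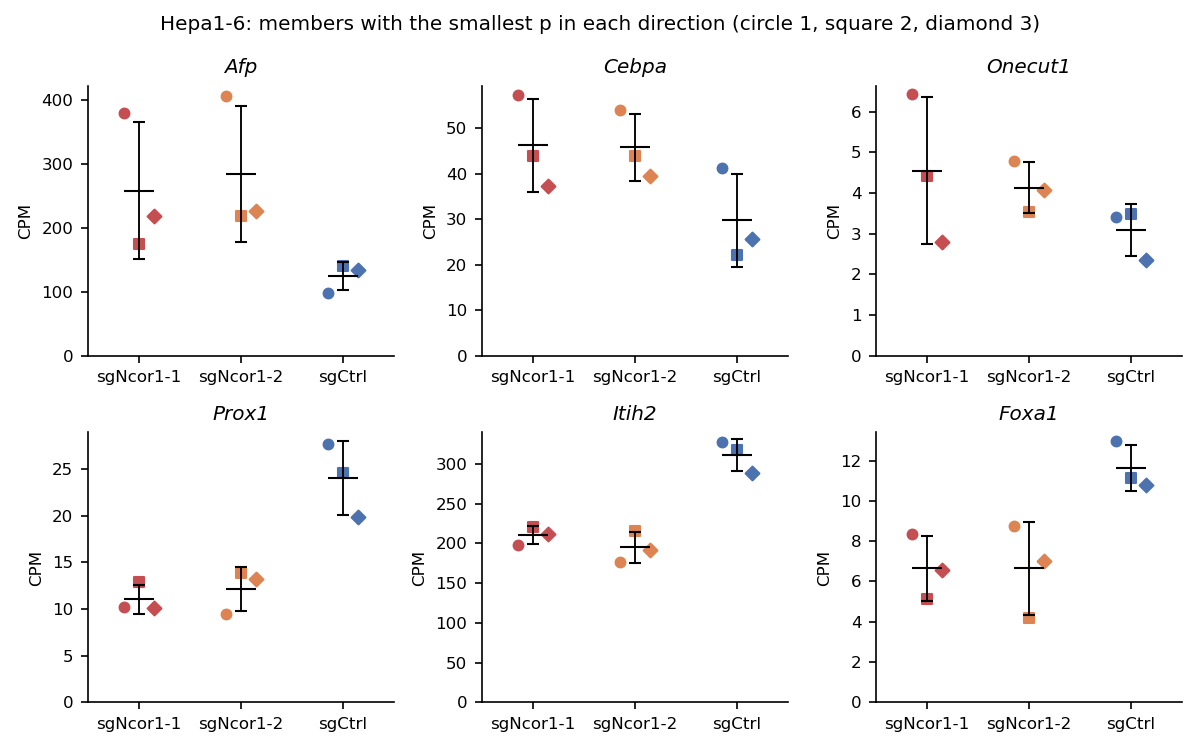
CPM in the 9 Hepa1-6 libraries of the 3 genes with the smallest p in each direction, with circles, squares and diamonds for replicate numbers 1, 2 and 3 and bars for the mean and SD of each group (n = 3). Afp in the upper row and Prox1, Itih2 and Foxa1 in the lower row have no overlap between both Ncor1 guides and sgCtrl, while Cebpa and Onecut1 overlap.

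Of the coagulation genes 3 could be tested. Fgb had the values given above and a log2 fold change of 0.09 (SE 0.50, edgeR, adjusted p = 0.971). Serpinc1 varied widely between libraries of a group, from 0.155 to 5.15 CPM within sgCtrl, with the largest SE of the 20 members (-0.47, SE 0.84, adjusted p = 0.874). Serpinf2 stood at 3.29 ± 1.01 CPM with sgNcor1-1, 3.05 ± 1.18 CPM with sgNcor1-2 and 4.73 ± 3.67 CPM with sgCtrl (-0.58, SE 0.52, adjusted p = 0.714). For each of the 3 the groups overlapped.

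Itih2 was the secreted protein gene that lay lowest relative to its spread. It had 198, 221 and 212 CPM with sgNcor1-1 and 177, 216 and 192 CPM with sgNcor1-2, against 328, 318 and 289 CPM with sgCtrl. Every knockout library was below every sgCtrl library, and each group varied little. The log2 fold change was -0.63 (SE 0.13, edgeR, adjusted p = 0.136), with an adjusted p of 0.00295 by DESeq2, in a range of 0.00295 to 0.998 over 17 settings. None of the metabolic enzymes could be tested, and G6pc had 1 count in the 6 knockout libraries together and 2, 1 and 11 counts in the sgCtrl libraries.

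For the leading genes both guides gave similar values. Against sgCtrl the log2 fold changes with sgNcor1-1 and sgNcor1-2 were 1.05 and 1.18 for Afp, -1.12 and -0.99 for Prox1, -0.57 and -0.68 for Itih2, -0.80 and -0.82 for Foxa1 and 0.63 and 0.61 for Cebpa (SE 0.15 to 0.34). Both comparisons share the same sgCtrl libraries. Same-numbered libraries of the guides were also alike, with deviations from their group means that correlated at 0.91, 0.68 and 0.76 for numbers 1, 2 and 3. The values of the guides are therefore not independent of each other. edgeR called 0 members with sgNcor1-1 (0.0482% of genes, 6 of 20 members at an unadjusted p under 0.05 against 7.54% of genes) and 0 with sgNcor1-2 (0.0803% of genes, 5 of 20 against 7.65%). Between the guides it called 0 members and 0 genes (0%), and at an unadjusted p under 0.05 there were 0 members and 0.0722% of genes.

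**Figure D4:**
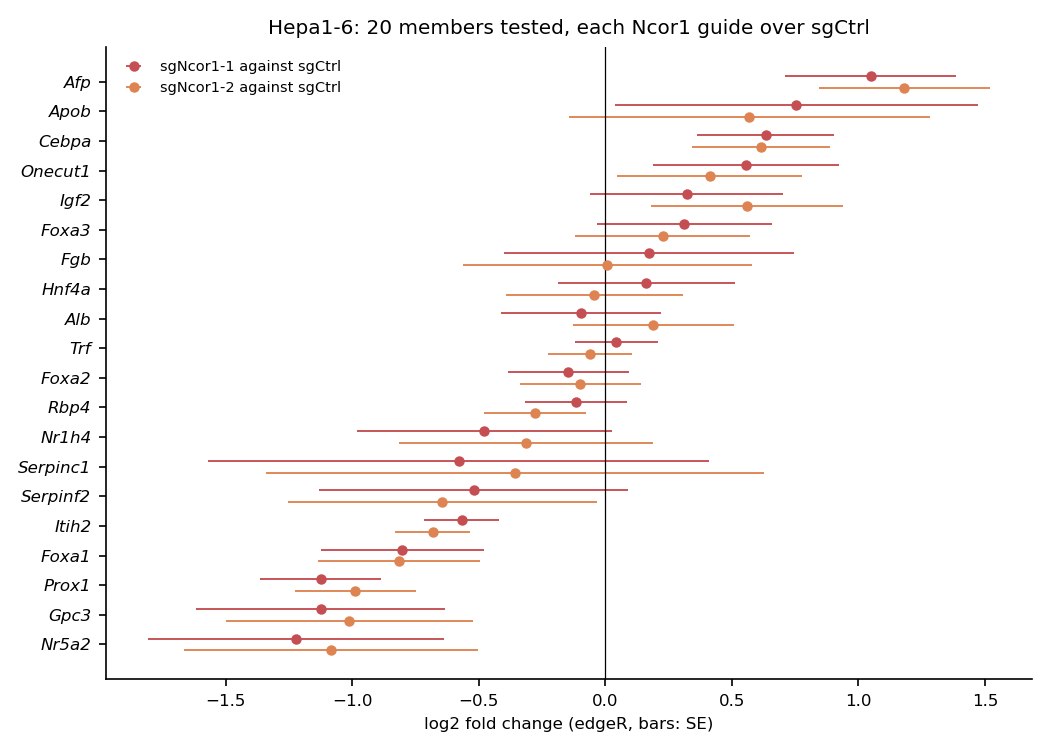
Log2 fold change of the 20 tested genes with sgNcor1-1 (upper point) and sgNcor1-2 (lower point) against sgCtrl in Hepa1-6, with bars for the SE. Afp lies highest, Nr5a2, Gpc3, Prox1, Foxa1 and Itih2 lie lowest, and for Alb, Hnf4a and Trf the guides lie on opposite sides of 0.

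The libraries carry numbers 1 to 3 in each group, and many genes, several liver genes among them, differed by number in every group. This was not particular to the liver genes. The library numbered 1 was the highest of its group in all 3 Hepa1-6 groups for 6 of 20 members (Apob, Hnf4a, Foxa1, Foxa2, Cebpa and Nr5a2), against 24.9% of genes, and the lowest in all 3 for 3 members (Gpc3, Fgb and Serpinc1), against 24.2%. Apob in the libraries numbered 1 was 4.43, 3.89 and 2.15 times the mean of numbers 2 and 3 with sgNcor1-1, sgNcor1-2 and sgCtrl, and Hnf4a 1.64, 2.00 and 1.71 times. Fgb was at 0.540, 0.541 and 0.231 of that mean, and Serpinc1 at 0.199, 0.296 and 0.0405. Whether these libraries differ in handling was not tested.

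Within each number a knockout library was therefore also set against the sgCtrl library of the same number, which gave 6 differences per gene. For Afp (0.33 to 2.04 on the log2 scale), Cebpa (0.38 to 0.98) and Onecut1 (0.02 to 0.89) all 6 were above 0, 3 of 20 members where 11.6% of genes were so. For Prox1 (-1.53 to -0.58), Itih2 (-0.89 to -0.44), Foxa1 (-1.40 to -0.56), Gpc3 (-1.47 to -0.60) and Nr5a2 (-1.58 to -0.60) all 6 were below 0, 5 of 20 where 12.5% of genes were so. The remaining 12 had both signs, over the widest range for Serpinf2 (-2.11 to 1.42) and Serpinc1 (-0.94 to 1.83). Within numbers 1, 2 and 3 the members' medians were 0.18, -0.23 and -0.06 for sgNcor1-1, and for sgNcor1-2 they were 0.16, -0.19 and -0.05.

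**Figure D5:**
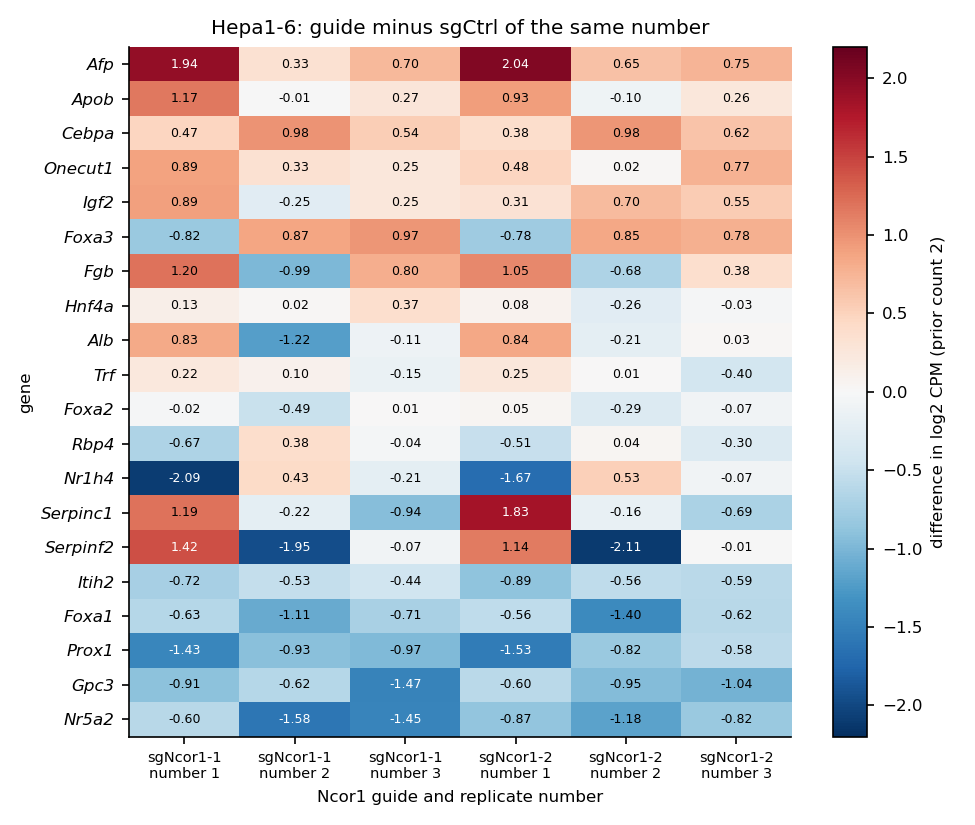
Difference in log2 CPM (prior count 2) between each Ncor1-targeted Hepa1-6 library and the sgCtrl library of the same number for the 20 tested genes, red above 0 and blue below. Afp, Cebpa and Onecut1 are above 0 and Prox1, Itih2, Foxa1, Gpc3 and Nr5a2 below 0 in all 6 columns, while the other genes have both signs.

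In B16 the 4 expressed members were tested and edgeR called 0, against 0.0324% of 12347 genes, with 0 of 4 at an unadjusted p under 0.05, against 2.36%, and no gene of the 4 without overlap, against 2.24%. Prox1 had 19.4, 22.7 and 35.0 CPM with sgNcor1-1 and 29.3, 20.6 and 36.8 CPM with sgNcor1-2, against 25.9, 18.8 and 30.5 CPM with sgCtrl. The groups overlapped, with a log2 fold change of 0.12 (SE 0.26). Trf had 94.7, 148 and 101 CPM with sgNcor1-1 and 102, 111 and 118 CPM with sgNcor1-2, against 88.3, 109.6 and 92.8 CPM with sgCtrl (0.21, SE 0.18). Foxa1 had 0.0760, 1.37 and 1.18 CPM with sgNcor1-1 and 0.930, 3.53 and 1.62 CPM with sgNcor1-2, against 2.02, 2.64 and 1.25 CPM with sgCtrl (-0.56, SE 0.68). Nr1h4 had 0.684 to 1.78 CPM with sgNcor1-1 and 2.67, 4.38 and 1.94 CPM with sgNcor1-2, against 2.71, 3.64 and 1.92 CPM with sgCtrl (-0.46, SE 0.43). Each of the 4 had an adjusted p of 1.00, and the sgNcor1-1 library numbered 1 had the lowest value of both Foxa1 and Nr1h4.

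Whether the Ncor1 guides moved these genes differently in Hepa1-6 and B16 was tested directly in the joint fit. edgeR called 0 members, against 0.178% of 14044 genes, and 1 of 20 at an unadjusted p under 0.05, against 6.91%. For Prox1 the knockout effect in Hepa1-6 minus that in B16 was -1.17 on the log2 scale (SE 0.35, adjusted p = 0.388). With a replicate block edgeR called it (adjusted p = 0.0345), 1 of 20 members, against 1.68% of genes. That block pairs libraries by number in both lines, although in Hepa1-6 the numbers were not taken to pair them. For Trf it was -0.22, for Foxa1 -0.26 and for Nr1h4 0.07, none of them called. For members at or near 0 in B16 the difference has no interpretable size, with an SE of up to 3143 (Serpinf2). Members at 0 there could not be called, so nothing is read from the counts over the 20 members.

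Further genes of the same pathways were described from lists by role, again with 0 called in each list in Hepa1-6. These lists were also chosen with earlier results of these data known. Of 22 other liver transcription factors 16 were tested, 8 above 0 and 8 below, with a median log2 fold change of 0.02 beside 0.02 over all genes. Among the smallest p values were those of Tbx3, a T-box factor of liver development (-1.02, SE 0.22, edgeR, adjusted p = 0.144), Ppargc1a, a coactivator of gluconeogenesis and mitochondrial genes (-1.66, SE 0.37, adjusted p = 0.150) and Klf15, a factor of fasting metabolism (-0.99, SE 0.35, adjusted p = 0.338). For each of the 3 the knockout libraries lay below the sgCtrl libraries without overlap. Over the list this was so for 6 of 16 genes, where 5.02% of all genes were so, and 1 gene lay above without overlap (Rxra, named after its values were seen, at 63.7 ± 4.56 CPM over the 6 knockout libraries and 51.8 ± 1.29 CPM in sgCtrl), against 4.11% of all genes. Cebpb and Onecut2 had the highest levels of the list in sgCtrl, at 226 ± 31.9 CPM and 139.6 ± 6.48 CPM, and Onecut2 averaged 55.9 ± 29.6 CPM over the 6 knockout libraries without overlap (-1.33, SE 0.47, adjusted p = 0.340).

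Of other plasma proteins 17 of 55 were expressed in Hepa1-6 sgCtrl, and 18 were tested, 6 above 0 and 12 below with a median of -0.25. Igfbp1, a binding protein of insulin-like growth factors, was the highest at 521 ± 204 CPM in sgCtrl, followed by Selenop, the selenium carrier, at 308 ± 39.0 CPM. Pros1, the anticoagulant protein S (-1.01, SE 0.21, edgeR, adjusted p = 0.136), F5, coagulation factor V (-1.08, SE 0.25, adjusted p = 0.163), C4b of complement (-1.31, SE 0.43, adjusted p = 0.316) and Cp, the copper protein ceruloplasmin (-1.78, SE 0.68, adjusted p = 0.380), had the smallest p. Knockout libraries lay below sgCtrl libraries without overlap for 4 of the 18, against 5.02% of all genes. These were Pros1, F5, C4b and F11, coagulation factor XI, which was named after its values were seen (0.688 ± 0.117 CPM over the 6 knockout libraries and 1.05 ± 0.166 CPM in sgCtrl).

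Other lipoprotein genes lay mostly above 0, 11 of the 13 tested of 18 listed, where 6558 of all 12458 genes tested did. Their median log2 fold change was 0.48, beside 0.02 over all genes. Without overlap 1 of the 13 lay above, against 4.11% of all genes, and 0 lay below, against 5.02%. Apoe, an apolipoprotein made in many tissues, was the most abundant at 1473 ± 178 CPM in Hepa1-6 sgCtrl and was also high in B16 sgCtrl, at 1203 ± 52.4 CPM. Apoc1, a small apolipoprotein (1.09, SE 0.39, edgeR, adjusted p = 0.338), and Lrp1, an endocytic receptor (-0.87, SE 0.39, adjusted p = 0.448), were among the genes with the smallest p.

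Of 39 genes of hepatocyte metabolism 10 were expressed in Hepa1-6 sgCtrl and 14 were tested, 10 above 0 and 4 below with a median of 0.20. Pklr, the liver pyruvate kinase, stood at 39.1 ± 1.69 CPM over the 6 knockout libraries and 20.7 ± 3.94 CPM in sgCtrl without overlap (0.91, SE 0.17, edgeR, adjusted p = 0.115). Khk, the kinase of fructose (1.01, SE 0.34, adjusted p = 0.321), also did not overlap, at 1.45 ± 0.175 CPM and 0.710 ± 0.125 CPM. They were the 2 of 14 that lay above without overlap, against 4.11% of all genes. Adh1, alcohol dehydrogenase (-1.13, SE 0.52, adjusted p = 0.466), and Cyp27a1, a sterol hydroxylase (-0.81, SE 0.38, adjusted p = 0.479), lay below 0. Asl and Ass1 of the urea cycle had the highest levels, at 71.4 ± 12.0 CPM and 56.9 ± 16.3 CPM in sgCtrl.

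Of 19 other oncofetal genes 9 were tested, 3 above 0 and 6 below with a median of -0.15, which is not the direction of Afp. Cd24a, a surface glycoprotein of progenitor cells, had the smallest p (-0.78, SE 0.28, edgeR, adjusted p = 0.357) and the highest level, at 186 ± 54.3 CPM in sgCtrl. Igf2bp1, an RNA-binding protein of fetal tissues, was next in level at 124 ± 22.8 CPM. Trim71 (-0.50), Prom1 (-0.97) and Igf2r (-0.33) were the others with the smallest p.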

How the data were processed

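RNA-seq of 18 mouse cell line libraries was used as 1 table per line of estimated counts per gene that the authors deposited. The submitters' processing notes name FastQC 0.12.1, Trim Galore 0.6.7, Bowtie2 2.2.5, RSEM 1.2.8 and the build mm10. The gene annotation was not given in the sources used here. RSEM shares reads between similar genes, so 7.87% (Hepa1-6) and 7.19% (B16) of the values were fractional, and every value was rounded before testing. The labels do not say whether the kit keeps strand, so reads of overlapping antisense genes cannot be told apart. Groups follow the sample titles. No pair of libraries of a line agreed within sampling noise (lowest chi-square per degree of freedom 11.0 in Hepa1-6 and 6.36 in B16).

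Levels are CPM with TMM scaling over all 18 libraries, and per kb of exon with GENCODE M21. Tests were edgeR 4.0.16 quasi-likelihood tests in R 4.3.3 with its filter on low counts, 1 fit per line for the knockout (mean of both guides minus sgCtrl, each guide alone, guide against guide) and 1 joint fit for the line comparison and the difference of knockout effects. Benjamini-Hochberg adjustment ran over all genes tested and adjusted p under 0.05 was called. Steps were tested on simulated data. DESeq2 1.42.0, limma-voom 3.58.1, RLE size factors, no filter, other expression thresholds, a replicate block and left-out libraries were alternatives. At these depths a floor of 3 counts was 0.0959 to 0.175 CPM in Hepa1-6 and 0.121 to 0.228 CPM in B16.

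The members and lists were chosen with earlier results of these data known. All 38 members are accounted for by role. Values per library are given for the 3 genes with the smallest p each way in Hepa1-6, the most abundant gene of each role, genes expressed in B16 and, chosen after their values were seen, Alb, Serpinc1, Gpc3 and others described by role. Each list gives up to 4 genes with the smallest p and the 2 most abundant, and some of these are not reported here. In B16 deviations of libraries with the same number correlated (0.50 to 0.74 over 9 pairs), so the numbers were taken to pair them, and a block changed no call of a member there.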

Additional observations from a re-analysis of the deposited data

How the results depend on the processing

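The count of called members in Hepa1-6 knockout against sgCtrl was 0 with edgeR and stayed 0 with limma-voom, RLE size factors, no filter and in each of 12 fits that left out libraries. It was 3 with DESeq2 (Afp, Itih2, Prox1) and 4 with the replicate block (Cebpa, Foxa1, Itih2, Prox1), which called 525 of 12458 genes. With DESeq2 it was 1 for sgNcor1-1 (Prox1), where 94 of 15462 genes were called, and 2 for sgNcor1-2 (Itih2, Prox1), where 114 of 13555 were. With the block it was 1 for sgNcor1-2 (Itih2), with 100 of 12458 genes called, and 1 for the difference between lines (Prox1), with 236 of 14044. In Hepa1-6 same-numbered libraries of the guides correlated at 0.68 to 0.91. With sgCtrl the guide libraries numbered 1 correlated at 0.61 and 0.59, and those numbered 2 and 3 at 0.05 to 0.38. Of 9 libraries 3 correlated best with their own number in both other groups, so the numbers were not taken to pair the libraries of all groups. At 5 CPM the count expressed in B16 was 2. The Hepa1-6 count also fell at that threshold. Serpinf2 (4.73 CPM), Onecut1 (3.09), Serpinc1 (2.61), Igf2 (1.98) and Gpc3 (1.06) were expressed in Hepa1-6 sgCtrl but lay under 5 CPM. At 1 CPM and without a library the count in Hepa1-6 was 18 to 19. The cause of these moves was not tested.

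Some signs turned. Serpinc1 was 0.15 with limma-voom, Alb -0.00493 with the block, and the difference between lines was 0.066 for Foxa1 and -0.11 for Nr1h4 with limma-voom and -0.14 for Nr1h4 with the block. Over fits that left out libraries the log2 fold change ran in Hepa1-6 from -0.35 to 0.39 for Alb, -0.15 to 0.36 for Hnf4a, -0.34 to 0.73 for Fgb, -0.12 to 0.14 for Trf, -1.05 to 0.41 for Serpinf2, -1.03 to 0.49 for Serpinc1, -0.39 to 0.022 for Rbp4, -0.88 to 0.17 for Nr1h4, and -0.041 to 0.87 for Foxa3, with the median over members from -0.18 to 0.01. In B16 Prox1 ran from -0.036 to 0.28, between control lines from -0.25 to 0.13, and the difference between lines from -0.35 to 0.44 for Nr1h4 and -0.85 to 0.20 for Foxa1. Afp was 0.61 or more, and Prox1 ran from -1.18 to -0.84, Itih2 from -0.68 to -0.53, Foxa1 from -0.94 to -0.63 and Apob from 0.09 to 1.13. Leaving out the libraries numbered 3 was added after seeing the data. Gpc3 between control lines ran from 2.32 to 7.62, adjusted p 0.00106 to 0.201, and had an adjusted p of 0.299 with the block. The 18 members outside edgeR's filter had at most 16 counts in a Hepa1-6 library. Without the filter 37 members were tested.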
